A study of Mus musculus with 13 samples.

Results

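The genes described here were the gasdermins of the mouse colon, namely Gsdmc, Gsdmc2, Gsdmc3, Gsdmc4, Gsdma, Gsdmd and Gsdme. They were taken by symbol from the gene list of the deposited count matrices, where they made up 7 of 32285 genes, and they were chosen with their counts by cell type and tissue in view. Levels by cell type and differences between tumor and mucosa are therefore given for them as a description, without a test. The study made single-cell RNA-seq libraries of 10 colon tumors and, as normal control, of 3 adjacent mucosa samples, all from 3 C57BL/6J mice. All of the mice were ApcMin/+; p16cis/cis, so they carried an Apc allele that gives intestinal tumors together with the p16cis allele that the study used to model a p16 epimutation, and all were fed the diet supplemented with methyl donors. Mouse A (24 weeks) gave mucosa 2 and tumors 5 to 8, mouse B (23 weeks) gave mucosa 3 and tumors 9 and 10, and mouse C (20 weeks) gave mucosa 1 and tumors 1 to 4. Several tumors thus shared an animal, the control mucosa had the same genotype and diet as the tumors, and neither another diet nor another genotype entered any comparison.

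Gasdermins are proteins that form pores in cell membranes. A protease, such as an inflammasome caspase, a granzyme or neutrophil elastase, cuts the protein in its linker and frees the amino-terminal part, which assembles into a pore, lets out cytokines of the IL-1 family and can end in lytic cell death. GSDMD is the substrate of caspase-1 and caspase-11 in this pathway. In the gut, the Gsdmc genes are known as genes of the epithelium that respond to type 2 cytokines, and Gsdma is best known from skin and the upper digestive tract.

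Each library held 57221300 to 116133079 unique molecular identifiers (UMIs, each counting an RNA molecule) in all its barcodes. After filters on UMIs, genes, mitochondrial share and doublets, 108495 cells remained, 85953 from tumors and 22542 from mucosa, with 4917 to 9791 cells per library and a median of 3586 to 9498 UMIs per cell. Clustering without the gasdermins and the pathway genes gave 38 clusters, which were named from marker lists and carry the ending "-like". The 13 libraries were labelled as 7 female and 6 male, whereas each held 2 to 10 UMIs of Xist and 6985 to 13134 UMIs of 4 Y-linked genes, so sex was not used. Mucosa was dissociated with EDTA and TrypLE and tumors with a tumor dissociation kit, and this difference cannot be told apart from tissue. Libraries shared at most 61 cell barcodes. A level below is in CPM, the usual scaling of the UMIs of a gene by the total UMIs of the same cells, summed over the cells of a class in a library with 20 or more such cells, and means are given ± SD over libraries. Such sums do not tell whether fewer cells carry an RNA or each cell carries less of it.

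The Gsdmc genes form a cluster on chromosome 15. In GRCm38, Gsdmc lay at chr15:63775968-63808759, Gsdmc2 at chr15:63824346-63845177, Gsdmc3 at chr15:63857724-63878558 and Gsdmc4 at chr15:63891264-63912297, all on the minus strand. This region of 136.33 kb held 4 protein-coding genes, all of them listed above. Gsdmd lay 11.95 Mb away on the same chromosome, at chr15:75862327-75867408 on the plus strand. Gsdma lay at chr11:98664351-98677708 on the plus strand beside its copies Gsdma2 and Gsdma3, and Gsdme at chr6:50188888-50263862 on the minus strand, where it overlaps Mpp6 on the opposite strand. Coding sequences of Gsdmc2, Gsdmc3 and Gsdmc4 were each 1440 bases long. Gsdmc2 and Gsdmc3 were identical at 97.08% of aligned coding bases and each was identical to Gsdmc4 at 93.79%, while Gsdmc matched the other 3 at 86.95 to 87.49%.

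The last 90 coding bases, read 5′ to 3′ from the GENCODE vM21 transcripts on GRCm38, show how little separates the ends of the coding sequences. The 3′ libraries were read near the ends of the transcripts, which are compared below. Capitals mark bases that differ from Gsdmc4.
Gsdmc4: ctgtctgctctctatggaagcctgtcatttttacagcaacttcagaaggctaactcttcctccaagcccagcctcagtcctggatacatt
Gsdmc2: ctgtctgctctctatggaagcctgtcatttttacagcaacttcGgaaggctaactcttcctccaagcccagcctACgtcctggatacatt
Gsdmc3: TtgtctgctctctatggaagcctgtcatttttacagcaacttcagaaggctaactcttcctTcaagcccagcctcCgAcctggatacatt
Gsdmc2 differed from Gsdmc4 at 3 of these bases and Gsdmc3 at 4. Within the last 500 bases of the transcripts, which hold 411 windows of 90 bases, 129 windows of Gsdmc2 (31.39%) were shared exactly with Gsdmc3 or Gsdmc and 77 windows of Gsdmc3 (18.73%) with Gsdmc2. Gsdmc4, Gsdma, Gsdmd and Gsdme shared none with another gene whose symbol begins with Gsdm, to which the comparison was limited. Neither Pjvk nor 1700065I16Rik, a transcribed pseudogene of the Gsdmc locus, was compared. The split of reads between Gsdmc2 and Gsdmc3 is therefore uncertain.

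The members differed widely in how often they were read. Over all barcodes, Gsdmd had 58949 UMIs, Gsdmc4 33271, Gsdmc2 11332, Gsdme 11219, Gsdma 8457 and Gsdmc3 3003. Gsdmc had 2 UMIs in all, both in tumor epithelial-like cells of a single tumor library, and it is not described further. Of the relatives outside the list, Gsdma2 had 421 UMIs, Gsdma3 4 and Pjvk 41.

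The 3 detected Gsdmc genes had their highest class means in absorptive epithelial-like cells in both tissues, although clusters of other epithelial cells reached comparable levels. Gsdmc4 had 169 ± 42.3 CPM in absorptive epithelial-like cells of mucosa (n = 3) and 519 ± 193 CPM in those of tumors (n = 10). The next class, other epithelial cells, had 43.0 ± 17.8 CPM in mucosa and 92.6 ± 49.7 CPM in tumors. In both tissues this gap was larger than the SD of either class. The other epithelial class held different clusters in the 2 tissues. Of its 3663 tumor cells, 2137 were of the Cxcl5, Sprr2b and Krt17 cluster, where 0.562% had a UMI of Gsdmc4. Another 1363 were of the Wfdc2 and Defb45 cluster, where 52.7% did, and that cluster held 398 of the 7366 mucosa cells. Goblet-like cells had 18.7 ± 7.48 CPM of Gsdmc4 in mucosa and 34.7 ± 28.6 CPM in tumors (n = 9), and cycling epithelial-like cells had 13.3 ± 2.18 and 68.8 ± 53.2 CPM (n = 3 in tumors), which did not differ from goblet-like cells beyond these spreads. Only 156 tumor cells fell in the cycling class. At a finer clustering (Leiden resolution 2) a cluster of 3565 tumor cells, led by Onecut2, Igfbp4 and Sox17, was also named cycling. The 156 cells therefore do not stand for all cycling tumor epithelium. Tumor epithelial-like cells, the class that held most tumor epithelium and is marked by Wnt target genes, had only 0.351 ± 0.255 CPM.

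Absorptive epithelial-like cells made up 1.31% of tumor cells but held 54.9% of the Gsdmc4 UMIs of tumors. In mucosa they made up 15.1% of cells and held 50.8% of the Gsdmc4 UMIs, of which the main absorptive cluster, led by 1810065E05Rik, Car1 and Cyp2c55, gave 25.9% of the mucosal total and the cluster led by Clca4b, Saa1 and Ly6m 24.9%, from 12.7 and 2.40% of the cells. Most of the remaining tumor UMIs, 38.9% of the total, came from a cluster led by Wfdc2 and Defb45, a pair of secreted antimicrobial-type proteins.

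Gsdmc2 followed the same order. Absorptive epithelial-like cells had 59.2 ± 17.5 CPM in mucosa and 106 ± 34.2 CPM in tumors, and other epithelial cells had 21.8 ± 9.58 and 30.4 ± 14.03 CPM. The step between these classes was larger than the spread in both tissues. Gsdmc3 had 14.5 ± 5.94 CPM in absorptive epithelial-like cells of mucosa and 18.5 ± 11.9 CPM in those of tumors, where it did not differ from other epithelial cells (8.87 ± 5.08 CPM) beyond the spread.

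Within the epithelium, 4 clusters carried most of the Gsdmc RNA. The cluster led by Clca4b, Saa1 and Ly6m, which are genes of mature surface colonocytes and of the acute phase, had 456 ± 268 CPM of Gsdmc4 in mucosa and 509 ± 206 CPM in tumors. The Wfdc2 and Defb45 cluster had 411 and 380 CPM in the 2 mucosa libraries with enough cells and 121 to 330 CPM in tumors (214 ± 63.1, n = 10), so the tumors were all lower, as they were for 8.84% of all genes of this cluster that passed the filter on low counts (and all higher for 11.3%). Of the mucosal clusters, the Reg3b and Reg3g cluster had 135 ± 90.1 CPM and the 1810065E05Rik, Car1 and Cyp2c55 cluster, the main absorptive cluster of mucosa, had 124 ± 84.6 CPM, which did not differ beyond the spread. In these mucosal clusters mucosa 1 was the highest library, with 239 CPM against 85.0 and 81.4 CPM in the former and 220 CPM against 59.6 and 91.8 CPM in the latter. In the Clca4b, Saa1 and Ly6m cluster mucosa 1 was instead the lowest, with 148 CPM from 29 cells.

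Gsdmc2 and Gsdmc3 were high in the same clusters. Gsdmc2 had 127 ± 35.2 CPM in mucosa and 110 ± 30.4 CPM in tumors in the Clca4b, Saa1 and Ly6m cluster, and 119 ± 6.47 (n = 2) and 73.8 ± 26.5 CPM in the Wfdc2 and Defb45 cluster. Gsdmc3 had its highest mean in the latter, 62.8 ± 10.3 CPM in mucosa (n = 2) and 20.8 ± 9.82 CPM in tumors. For Gsdmc3 the ranges of 55.5 to 70.1 CPM and 7.53 to 35.7 CPM did not overlap, which with 2 mucosa libraries has the same background of 8.84%, whereas for Gsdmc2 the tumor range of 38.5 to 122 CPM reached that of mucosa.

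**Figure D1:**
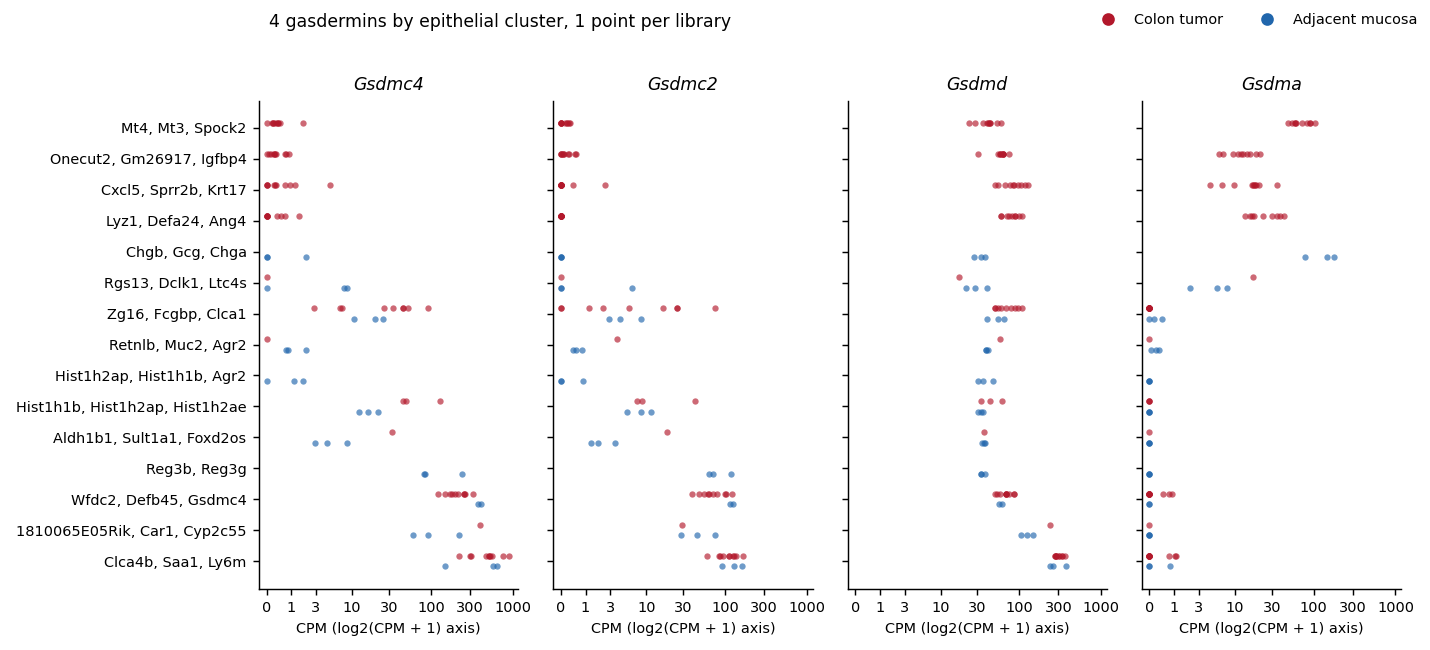
Level of Gsdmc4, Gsdmc2, Gsdmd and Gsdma in the 15 epithelial clusters, each named by its leading genes. The horizontal axis is log2(CPM + 1), and each point is a library with at least 20 cells of the cluster (tumors red, mucosa blue). Gsdmc4 and Gsdmc2 peak in the Clca4b, Saa1 and Ly6m cluster and the Wfdc2 and Defb45 cluster, Gsdmd peaks in the former, and Gsdma peaks in the mucosal Chgb, Gcg and Chga cluster and the tumor Mt4, Mt3 and Spock2 cluster.

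Next, the Gsdmc genes were followed in individual cells. In the Clca4b, Saa1 and Ly6m cluster, 55.0% of mucosa cells and 43.1% of tumor cells had a UMI of Gsdmc4, at medians of 8124 and 10553 UMIs per cell. Reduced to 2000 UMIs per cell, the expected shares were 40.1% and 28.4%. Among neutrophil-like cells of tumors, which should lack the gene, 0.237% had a UMI, or 0.153% at 2000 UMIs, so the epithelial shares stood far above this background. Of the tumor cells of this cluster with Gsdmc4, 66.3% also had Gsdmc2, against 2.88% of those without it, and at 2000 UMIs these shares were 28.3% and 3.33%. The mucosa cells gave 31.2% and 5.76% at 2000 UMIs.

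Gsdmc3 was found in 28.8% of tumor cells of the cluster with Gsdmc4 and in 0.321% of those without it, and at 2000 UMIs in 6.36% and 0.582%. Gsdmc2 and Gsdmc3 were thus read more often in cells of this cluster that had Gsdmc4. The gap was narrower in the Reg3b and Reg3g cluster of mucosa, where 68.8% of cells with Gsdmc4 and 24.8% of those without it had Gsdmc2, or 26.7% and 9.74% at 2000 UMIs. Gsdmd had no such common pattern across clusters once depth was held equal. In the same cluster it had a UMI in 95.3% of tumor cells with Gsdmc4 and in 78.8% of those without it, but at 2000 UMIs, 41.2% of tumor cells with Gsdmc4 and 49.7% of those without it had Gsdmd, and in mucosa the shares were 40.0% and 52.1%. The main absorptive cluster of mucosa had the same order, with 15.4% and 23.0% at 2000 UMIs. The order was opposite in the Wfdc2 and Defb45 cluster, with 14.3% and 11.8% in tumors and 13.7% and 9.54% in mucosa, and in the Reg3b and Reg3g cluster of mucosa, with 7.72% and 6.31%. These are counts over cells of shared libraries and carry no test.

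Gsdmd, the general executioner of inflammasome-driven cell death, was read in nearly every class. Its highest mean in both tissues was that of absorptive epithelial-like cells, with 300 ± 32.7 CPM in tumors and 145 ± 18.5 CPM in mucosa. Both exceeded the next epithelial class beyond the spread, which was Paneth-like cells in tumors (80.5 ± 16.5 CPM, n = 9) and goblet-like cells in mucosa (52.5 ± 12.8 CPM). Ly6c+ monocyte-like cells of mucosa had 79.1 CPM in the single library with enough of them, from a class with 21 Gsdmd UMIs in all. Below them, from Paneth-like down to tumor epithelial-like cells, the tumor classes formed a gradual series in which neighbours did not differ beyond the spread. Other epithelial cells had 77.4 ± 15.7 CPM and goblet-like cells 72.1 ± 20.8 CPM. The myeloid classes followed closely, with inflammatory macrophage-like cells at 63.6 ± 8.18 CPM, Ly6c+ monocyte-like cells at 61.5 ± 7.26 CPM, dendritic-like cells at 60.1 ± 7.86 CPM and C1q+ macrophage-like cells at 53.5 ± 6.63 CPM.

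Among the leukocytes of tumors, Gsdmd was lower in neutrophil-like cells (36.1 ± 2.60 CPM, range 32.8 to 40.1), T cell-like cells (26.0 ± 3.77 CPM) and B cell-like cells (18.7 ± 4.79 CPM). Plasma cell-like cells had the lowest level of these classes, with 4.57 ± 1.06 CPM in tumors and 9.08 ± 3.74 CPM in mucosa. The myeloid cluster marked by Ccr7 and Fscn1, genes of migratory dendritic cells, reached 74.2 ± 11.7 CPM. Absorptive epithelial-like cells gave 14.6% of the Gsdmd UMIs of tumors and 42.9% of those of mucosa, and tumor epithelial-like cells gave 24.5% of those of tumors at 51.6 ± 9.51 CPM.

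In single cells of the Clca4b, Saa1 and Ly6m cluster, 85.9% of tumor cells and 83.1% of mucosa cells had a UMI of Gsdmd. At 2000 UMIs the shares were 47.3% and 47.2%, against 7.13% of neutrophil-like cells of tumors.

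Gsdma was a gene of tumor epithelium and of hormone-secreting cells. In tumors, tumor epithelial-like cells had 33.4 ± 13.1 CPM (lowest 13.3, median 33.3, highest 49.6) and Paneth-like cells 26.0 ± 10.9 CPM (n = 9), which did not differ beyond the spread. Other epithelial cells had 9.25 ± 5.11 CPM, absorptive epithelial-like cells 0.294 ± 0.483 CPM, and no immune class of tumors had a mean above 0.854 CPM. Tumor epithelial-like cells gave 84.1% of the Gsdma UMIs of tumors. Most of these, 64.5% of the total, came from the cluster led by the metallothioneins Mt4 and Mt3 and by Spock2, at 71.8 ± 18.4 CPM (range 48.5 to 103). All 10 tumors were higher in it than in the cluster led by Onecut2, Gm26917 and Igfbp4, which had 12.9 ± 4.86 CPM (range 6.06 to 21.03), and than in the cluster led by Cxcl5, Sprr2b and Krt17, which had 16.5 ± 8.50 CPM (range 4.51 to 34.8). How many other genes separated these clusters in the same way was not counted. The metallothionein-led cluster was also among the deepest, and 55.7% of its cells had a UMI of Gsdma, or 13.05% at 2000 UMIs, against 0.532% and 0.0699% in absorptive epithelial-like cells of tumors.

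In mucosa, Gsdma was found at 77.3, 146 and 175 CPM in enteroendocrine-like cells of mucosa 1, 2 and 3. The class held 254 cells and 190 Gsdma UMIs, which was 86.0% of the mucosal total although it was 1.13% of mucosa cells. All 3 libraries were far above tuft-like cells, the next class, which had 5.26 ± 2.91 CPM. The relative Gsdma2 had another source, since Paneth-like cells gave 84.9% of its UMIs in tumors.

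In tumors, Gsdme was low in every class and was spread over neutrophils and epithelium. Of the classes with enough cells in more than 1 tumor, neutrophil-like cells had the highest mean, 21.7 ± 4.77 CPM (range 16.1 to 30.3), which exceeded cycling epithelial-like cells (10.8 ± 4.74 CPM) and other epithelial cells (10.3 ± 2.57 CPM) beyond the spread. Mast-like cells of tumors were close to them. All 147 such cells together held 16 Gsdme UMIs, or 23.4 CPM (exact Poisson 95% interval 13.4 to 37.9), the single tumor with enough of them had 17.1 CPM, and at 2000 UMIs 3.74% of mast-like and 4.32% of neutrophil-like cells of tumors had a UMI. Tumor epithelial-like cells had 8.25 ± 1.84 CPM, dendritic-like cells 8.05 ± 2.55 CPM, B cell-like cells 7.58 ± 3.24 CPM and plasma cell-like cells 3.97 ± 1.05 CPM. Neutrophil-like cells gave 29.1% of the Gsdme UMIs of tumors and were 30.9% of the cells, and tumor epithelial-like cells gave 26.1%.

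Gsdme differed in mean among the neutrophil clusters. The cluster led by Retnlg and Ngp, genes of younger neutrophils, had 27.9 ± 3.97 CPM of Gsdme (range 23.0 to 34.6), and the cluster led by G0s2 and Acod1, genes of activated neutrophils, had 11.6 ± 2.88 CPM (range 7.92 to 17.2). The ranges did not overlap in these 10 tumors, but the share of all genes that separate these clusters was not counted. The Ccl3 and Ccrl2 cluster lay between them at 16.9 ± 6.07 CPM, and it rests on 2 to 17 Gsdme UMIs per tumor. Gsdmd in the same clusters was 36.2 ± 3.42, 34.5 ± 3.75 and 41.5 ± 11.3 CPM, with overlapping ranges.

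In mucosa, enteroendocrine-like cells had the highest Gsdme mean of the classes with enough cells in all 3 libraries, 40.6 ± 7.63 CPM. Cycling epithelial-like cells had 18.2 ± 8.10 CPM and other epithelial cells 17.9 ± 4.16 CPM, and these did not differ beyond the spread. The cluster led by Retnlb, Muc2 and Agr2, genes of mucus-secreting cells, had 25.03 ± 3.38 CPM and gave 31.7% of the mucosal Gsdme UMIs. Absorptive epithelial-like cells had 7.46 ± 0.997 CPM, so the class with the most Gsdmc4 and Gsdmd was among the lowest of the epithelium for Gsdme. Neutrophil-like cells of mucosa had a higher value, 75.3 CPM in mucosa 2 and 24.8 CPM in mucosa 3, the 2 libraries with enough of them. It rests on 6 Gsdme UMIs in 81 cells over 3 libraries, or 46.5 CPM in all (exact Poisson 95% interval 17.1 to 101), so its order against enteroendocrine-like cells could not be told at this depth.

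**Figure D2:**
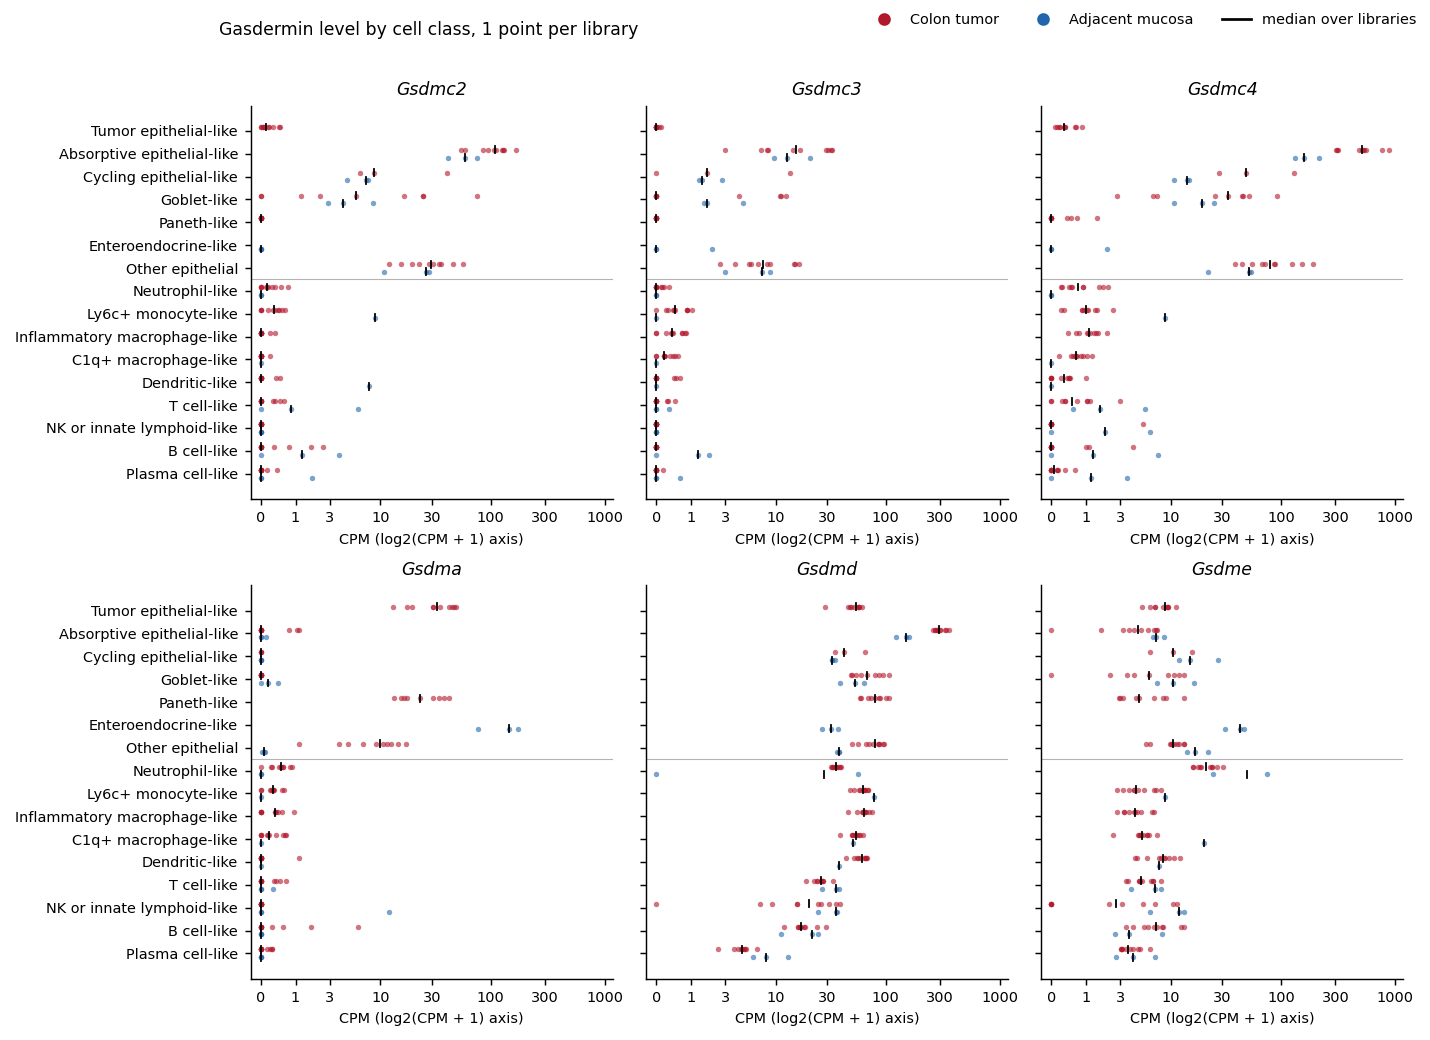
Levels of 6 gasdermins in 16 cell classes, as log2(CPM + 1) on the horizontal axis. Each point is a library with at least 20 cells of the class (tumors red, mucosa blue) and black lines mark the median. Gsdmc2, Gsdmc3, Gsdmc4 and Gsdmd are highest in absorptive epithelial-like cells, Gsdma in enteroendocrine-like and tumor epithelial-like cells, and Gsdme in neutrophil-like cells of tumors and, in mucosa, in enteroendocrine-like cells and the 2 libraries of neutrophil-like cells (24.8 and 75.3 CPM).

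The design sets tumors against adjacent mucosa, and all epithelial cells of a library were summed first. Every tumor had more Gsdma than every mucosa library. Mucosa 1, 2 and 3 had 0.630, 1.14 and 1.20 CPM, and the tumors had 6.87 to 38.9 CPM with a median of 26.4. The fitted log2 fold change (edgeR, tumor over mucosa) was 4.33 with a standard error (SE) of 0.51. Each SE was derived as the absolute log2 fold change over the square root of the quasi-likelihood F. It is given for scale, and no test is read from it for the members. Tumors of the same mouse entered this fit and the later ones as separate samples, so an SE does not measure the spread among animals. Gsdma2 was fitted at 4.72 (SE 1.22) from means of 0.975 and 0.0285 CPM, the latter from very few counts. Markers of other cells that carry Gsdma were summed beside it. The 7 enteroendocrine markers summed to 524 to 728 CPM in mucosa and 19.7 to 736 CPM in tumors, with Sst at 0 in tumors, so these overlapped. The 7 Paneth markers did not, with 5.22 to 38.4 CPM in mucosa and 389 to 5577 CPM in tumors, and with Defa17 and Mptx2 at 0 in mucosa. Without the enteroendocrine-like and Paneth-like clusters, a setting added after the data were seen, the Gsdma log2 fold change was 7.23. Enteroendocrine-like cells held most mucosal Gsdma UMIs and were rare in tumors, so this setting lowered the mucosa level by choice. The value therefore rests on few mucosal counts, and nothing is read from it.

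Gsdme showed the opposite order, with 22.0, 11.5 and 14.02 CPM in mucosa 1, 2 and 3 and 5.44 to 11.1 CPM (median 8.73) in the tumors. The groups did not overlap, and the log2 fold change was -1.17 (SE 0.20). The gap between the nearest values, 11.1 and 11.5 CPM, was narrow.

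The other members overlapped between the tissues. Gsdmc4 had 31.2, 60.7 and 64.3 CPM in mucosa and 19.6 to 117 CPM (median 47.2) in tumors, with a log2 fold change of -0.12 (SE 0.48) that turned to 0.059 without mucosa 3 and lay at -0.38 without mucosa 1. Gsdmc2 had 13.3, 23.2 and 28.5 CPM in mucosa and 5.80 to 32.7 CPM (median 12.9) in tumors, at -0.74 (SE 0.44). Gsdmc3 gave -0.98 (SE 0.45) and Gsdmd 0.15 (SE 0.21), the last at -0.0083 without mucosa 1. The Gsdmc values ranged more among tumors than between the tissue means.

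These epithelial sums mix different cells. Absorptive epithelial-like cells were 7.42 to 27.0% of epithelial cells in mucosa and 2.39 to 15.8% in tumors. Tumor epithelial-like cells were 42.3 to 75.3% in tumors and 0.119 to 0.247% in mucosa, and enteroendocrine-like cells 0.058 to 0.163% and 1.43 to 1.78%. Across all genes tested in these sums 64% passed an adjusted p of 0.05 (33.8% higher and 30.2% lower in tumors), every tumor was above every mucosa library for 33.2% of genes and below for 12.8%, and the median log2 fold change was 0.04. Of the 6 members tested 1 passed as higher and 1 as lower, and since tissue entered the choice of the genes nothing is read from that count.

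Within absorptive epithelial-like cells, Gsdmc4 and Gsdmd were higher in every tumor. Gsdmc4 had 215, 132 and 160 CPM in mucosa 1, 2 and 3 and 301 to 893 CPM (median 517) in the tumors, with a log2 fold change of 1.49 (SE 0.31). Gsdmd had 151, 159 and 124 CPM in mucosa and 259 to 357 CPM (median 292) in the tumors, with 0.93 (SE 0.16). Neither gene overlapped between the groups. Gsdmc2 had 41.7 to 76.6 CPM in mucosa and 55.1 to 166 CPM in tumors, which overlapped, at 0.73 (SE 0.27). Gsdmc3 gave 0.33 (SE 0.51) and Gsdme -0.74 (SE 0.33), also with overlap. Here 35.2% of all genes tested passed the threshold, 17.1% as higher and 18.1% as lower, and every tumor was above every mucosa library for 11.2% of genes and below for 9.06%.

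However, this class was made of different clusters in the 2 tissues. In mucosa 2872 of its cells belonged to the 1810065E05Rik, Car1 and Cyp2c55 cluster and 540 to the Clca4b, Saa1 and Ly6m cluster, whereas in tumors 32 belonged to the former and 1096 to the latter. The comparison was therefore repeated in the Clca4b, Saa1 and Ly6m cluster alone, an alternative added after the data were seen, and the groups overlapped there. Gsdmc4 had 148, 581 and 638 CPM in mucosa and 220 to 893 CPM (median 518) in tumors, with a log2 fold change of -0.07 (SE 0.39), less than its SE and opposite in sign to the difference of the means. The low value was that of mucosa 1. Gsdmd had 240, 376 and 261 CPM in mucosa and 270 to 357 CPM (median 292) in tumors, at -0.16 (SE 0.19), whereas its mean was 302 CPM in tumors and 292 CPM in mucosa.

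In the same cluster Gsdmc2 was at -0.44 (SE 0.24), Gsdmc3 at -1.39 (SE 0.49) and Gsdme at 0.17 (SE 0.51). All 5 overlapped between the tissues. Of all genes tested in this cluster 13.3% passed the threshold (6.83% as higher and 6.45% as lower), from which nothing is read for the members. The Clca4b, Saa1 and Ly6m cluster was 2.23 to 15.7% of epithelial cells in tumors (median 5.65) and 1.15 to 4.47% in mucosa.

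**Figure D3:**
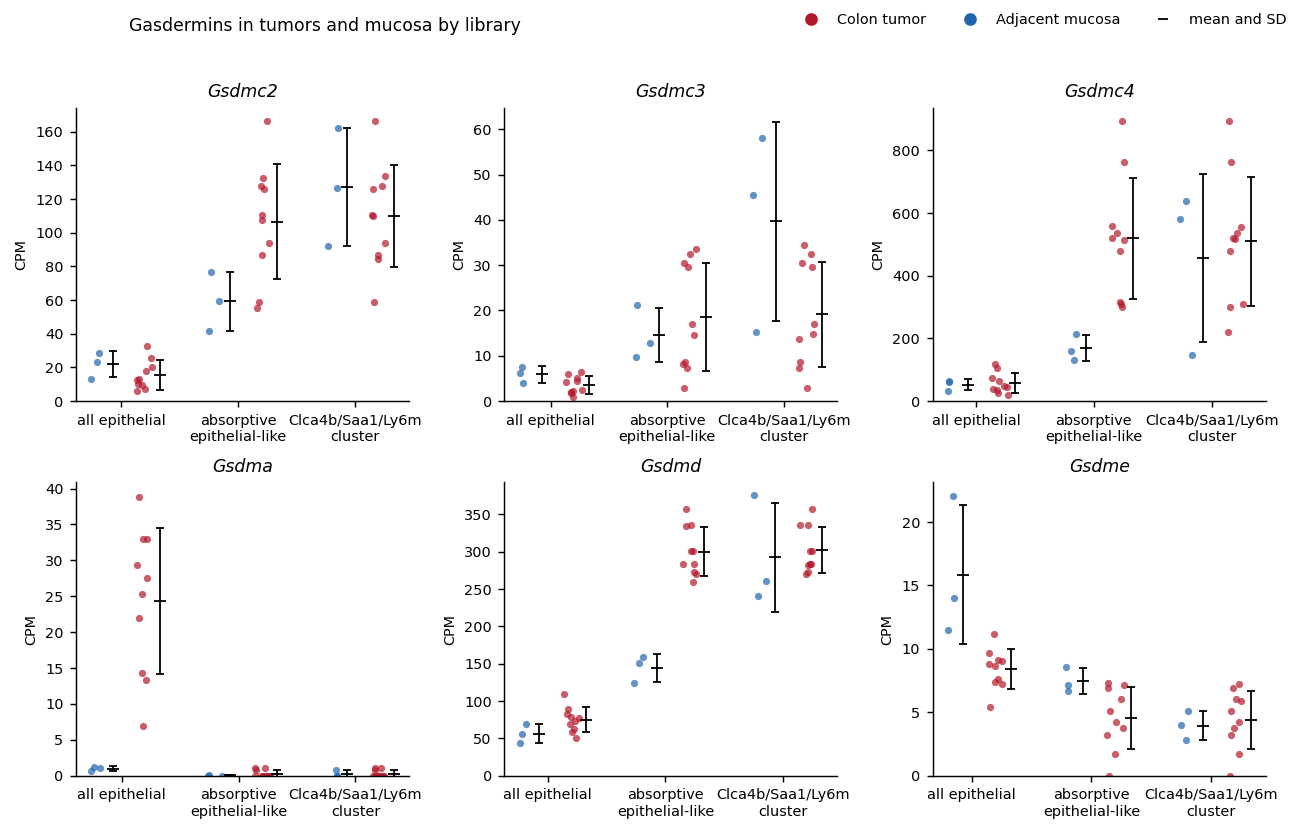
Level of 6 gasdermins in CPM (linear axis) in tumors and adjacent mucosa, over all epithelial cells, absorptive epithelial-like cells, and the Clca4b, Saa1 and Ly6m cluster alone. Each point is a library and bars give mean and SD. Gsdma in all epithelial cells separates the tissues, Gsdmc4 and Gsdmd separate them in absorptive epithelial-like cells, and both overlap within the single cluster.

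T cell-like cells were the largest leukocyte class of mucosa, with enough cells in every library of both tissues. Gsdmd had 33.7 ± 5.84 CPM in mucosa and 26.0 ± 3.77 CPM in tumors, and the log2 fold change was -0.17 (SE 0.15). Gsdme had 6.38 ± 2.19 and 5.45 ± 1.46 CPM, at -0.09 (SE 0.27), a value that turned to 0.28 without mucosa 1 and lay at -0.38 without mucosa 3. Both overlapped between the tissues. Of all genes tested in this class 41.1% passed the threshold (20.4% as higher and 20.7% as lower, with every tumor above every mucosa library for 10% and below for 19.5%), from which again nothing is read for the members. Most T cell-like cells of mucosa (3947 of 4672) fell in a different cluster from those of tumors, so the class did not hold the same cells in both. Markers of other cells moved with tissue as well, the 8 epithelial markers at 243 to 2861 CPM in mucosa and 62.0 to 260 CPM in tumors, and their part in the Gsdmd and Gsdme levels of this class was not tested.

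The choice of genes did not use the mouse, so differences among mice could be tested for the members, in the 10 tumors. Tumors of an animal are not independent animals, and these p-values measure differences among tumors of 3 mice. In epithelial sums, Gsdma was at 25.3, 27.5, 33.01 and 38.9 CPM in tumors 5 to 8 of mouse A, 14.3 and 6.87 CPM in tumors 9 and 10 of mouse B, and 29.4, 22.0, 13.4 and 32.97 CPM in tumors 1 to 4 of mouse C. Mouse A lay wholly above mouse B, and mouse C overlapped both. How many other genes had such an order among the mice was not counted. The difference did not pass the correction over all genes (edgeR quasi-likelihood F test, adjusted p = 0.159, unadjusted p = 0.00991), whereas DESeq2 gave an adjusted p of 0.0143.

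The remaining members did not pass either in epithelium. Gsdmc4 had means of 48.7, 71.2 and 58.4 CPM in mice A, B and C (edgeR adjusted p = 0.794), with the 2 tumors of mouse B at 24.96 and 117 CPM. In tumors 9 and 10 the Wfdc2 and Defb45 cluster was 3.94 and 21.7% of epithelial cells. The Clca4b, Saa1 and Ly6m cluster was 4.41 and 15.7%, and the part of these clusters in the Gsdmc4 levels was not tested. Gsdmd had 70.2, 93.3 and 70.5 CPM (edgeR adjusted p = 0.424) and Gsdme 7.73, 7.29 and 9.65 CPM (edgeR adjusted p = 0.371). Gsdmc2 and Gsdmc3 had edgeR adjusted p-values of 0.805 and 0.890. The threshold was passed by 0.52% of all genes tested, that is by 80 of 15377, while 2857 had an unadjusted p under 0.05. This count was not stable, with 1124 genes by DESeq2 and as few as 0 when a tumor was left out. Leaving out tumor 9 or 10 left mouse B with a single tumor, so no count or p-value is given for those fits.

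In neutrophil-like cells, Gsdme had its highest mean in mouse A, with 23.2, 30.3, 24.3 and 26.7 CPM in tumors 5 to 8. Mouse B had 16.3 and 19.4 CPM and mouse C 16.1, 18.0, 24.4 and 18.7 CPM. The tumors of mouse A overlapped those of mouse C through tumor 3, and the difference did not pass the correction (edgeR adjusted p = 0.0952, unadjusted p = 0.0159). Without tumor 3 it did, with an edgeR adjusted p of 0.0324. Gsdmd was nearly level, with means of 37.4, 38.6 and 33.5 CPM (edgeR adjusted p = 0.565). Here 11.4% of all genes tested passed the threshold.

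**Figure D4:**
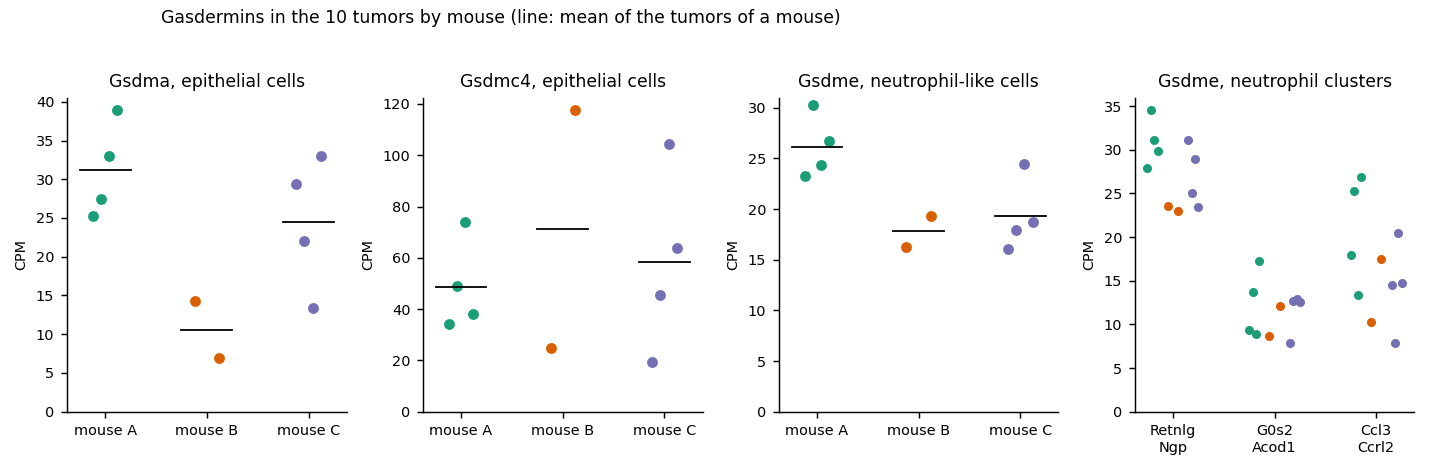
Gsdma and Gsdmc4 in epithelial cells, Gsdme in neutrophil-like cells, and Gsdme in 3 neutrophil clusters, in CPM, for the 10 tumors coloured by mouse. Each point is a tumor and lines mark the mean of a mouse in the first 3 panels. The mean of Gsdma is lowest in mouse B and that of Gsdme in neutrophil-like cells highest in mouse A, with tumors of mouse C overlapping in both. Gsdme is higher in the Retnlg and Ngp cluster than in the G0s2 and Acod1 cluster in all 10 tumors, for which no share of all genes was counted.

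The genes that act upstream and downstream of gasdermins were then described as lists, beside the background of all genes given above. The lists were chosen with earlier results of these data known. Genes named from them were among those with the largest changes past the threshold, so their p-values serve as a description. For tumor against mucosa these p-values also take tumors of the same mouse as separate samples. In epithelial sums, 9 of the 11 inflammasome sensors and adaptors tested passed the threshold, 6 of them lower in tumors (edgeR, list median log2 fold change -0.56). The largest changes were rises from near 0. Mefv, which encodes the sensor pyrin, was at 0 in all 3 mucosa libraries and at 0.388 ± 0.202 CPM in tumors (edgeR adjusted p = 7.81e-05), and Nlrp3 rose from 0.0475 ± 0.0445 to 2.71 ± 1.97 CPM (edgeR adjusted p = 0.000326). Neutrophil markers, at 101 to 765 CPM in tumors and 6.66 to 20.2 CPM in mucosa, moved with both, and their part was not tested. Nlrp6, a sensor of the gut epithelium, had 23.9 ± 7.93 CPM in tumors against 127 ± 47.5 CPM in mucosa (-2.66, SE 0.27, edgeR adjusted p = 3.7e-06). It was a leading gene of a cluster with 3121 mucosa and 83 tumor cells, whose part in the fall was not tested. Pycard, the adaptor that joins sensors to caspase-1, had 263 ± 132 against 936 ± 217 CPM (-2.08, SE 0.36). Of 7 caspases, 4 fell and 1 rose. Casp1, which cuts GSDMD, fell by 1.31 (SE 0.19, edgeR adjusted p = 6.2e-05), while Casp6 rose by 0.81 (SE 0.20). The 7 genes of ESCRT-III, the machinery that removes damaged membrane, all passed, 6 as lower, with Chmp6 at -0.94 (SE 0.20) and Chmp4c at -0.75 (SE 0.12).

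The list of cargo and membrane rupture had 6 genes tested, of which 3 passed as higher and 2 as lower. Among the cargo released through gasdermin pores, Il33 rose from 0.111 ± 0.0687 to 15.1 ± 4.14 CPM (log2 fold change 6.77, SE 0.39, edgeR adjusted p = 6.4e-08) and Il1b from 0.116 ± 0.140 to 30.9 ± 16.6 CPM (7.70, SE 0.86). Il1a rose as well (6.37, SE 0.92), and Ninj1, whose product ruptures the membrane after pore formation, fell by 0.85 (SE 0.15). Markers of neutrophils moved with Il1a and Il1b. All 9 had UMIs in the epithelial sums of both tissues, and their summed level was 101 to 765 CPM in tumors and 6.66 to 20.2 CPM in mucosa, whose part in these rises was not tested. Granule proteases went both ways, with 1 of 3 tested passing as higher, 1 as lower and a list median log2 fold change of -1.18. Prtn3, a granule protease of neutrophils, rose from 0.0250 ± 0.0249 to 0.802 ± 0.441 CPM (4.64, SE 0.78).

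Of the type 2 cytokine axis, 4 of 7 genes could be tested and all 4 passed, 2 in each direction. Il4ra, the shared receptor chain for IL-4 and IL-13, rose from 11.4 ± 1.30 to 23.3 ± 6.64 CPM (0.77, SE 0.23), and Stat6, which signals from it, rose by 0.30 (SE 0.09). Il13ra1 fell by 0.84 (SE 0.20), and Retnlb, a goblet cell product induced by type 2 cytokines, fell by 4.97 (SE 0.67). Retnlb led a cluster with 2459 mucosa and 66 tumor cells, and the part of this cell mix in its fall was not tested. Il4, Il13 and Il25 did not pass the filter on low counts. Of the genes that transcribe or modify gasdermins, 2 of 6 rose and 2 fell, with Serpinb1a, an inhibitor of neutrophil proteases, at -1.19 (SE 0.37).

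In absorptive epithelial-like cells Casp1 and Casp4, the latter of which encodes caspase-11, fell, and both were also lower in the Clca4b, Saa1 and Ly6m cluster alone. There Casp1 was at 132 ± 23.5 CPM in tumors and 183 ± 39.2 CPM in mucosa (-0.69, SE 0.18, edgeR adjusted p = 0.0177) and Casp4 at 66.3 ± 20.3 and 150 ± 110 CPM (-1.19, SE 0.33, edgeR adjusted p = 0.0259). Nlrp6 fell there by 2.11 (SE 0.33, edgeR adjusted p = 0.00138). Gsdmd itself overlapped between the tissues in that cluster, as given above.

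Of the other lists in absorptive epithelial-like cells, 2 of 8 inflammasome genes rose, namely Naip2 and Aim2, and Nlrp6 fell. In the Clca4b, Saa1 and Ly6m cluster alone, 1 of 8 passed, namely Nlrp6, so neither Naip2 nor Aim2 passed there. Of the cargo, Il1a, Il1b and Il33 rose in the class. None of the 6 cargo genes passed in the cluster alone, although their median log2 fold change there was 1.36. The neutrophil markers again moved with them, at 297 to 2404 CPM in tumors against 37.6 to 119 CPM in mucosa for the class, with Csf3r and Mmp9 at 0 in mucosa, and their part was not tested. Il4ra rose in the class from 20.0 ± 6.54 to 62.4 ± 18.7 CPM (1.52, SE 0.29). In the cluster none of 3 type 2 genes tested passed, with a median log2 fold change of 0.325. Zdhhc5, which encodes an enzyme that attaches palmitate to proteins, rose in both (0.50, SE 0.18 and 0.63, SE 0.20).

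In T cell-like cells, the granule proteases Gzma and Gzmb fell, by 2.24 (SE 0.35) and 1.11 (SE 0.26). Both are leading genes of a cluster with 3947 T cell-like cells of mucosa and 452 of tumors. The part of this cell mix in the 2 falls was not tested. Casp1 fell by 1.10 (SE 0.17) and Pycard by 0.72 (SE 0.14), and Casp4 rose by 0.59 (SE 0.18). The epithelial markers of these sums, given above, also moved with tissue, and their part in the falls was not tested. Nlrp3 was at 0 in all 3 mucosa libraries and at 4.54 ± 3.53 CPM in tumors (edgeR adjusted p = 0.000904). Of 4 cargo genes tested 3 rose, with Il1b at 6.53 (SE 0.86). Beside it and Nlrp3 stood neutrophil markers at 121 to 643 CPM in tumors and 6.27 to 7.61 CPM in mucosa, where Csf3r, Cxcr2 and Trem1 were at 0, whose part was not tested. Il13 was at 1.76 ± 1.67 CPM in tumors and 0.0614 ± 0.106 CPM in mucosa (edgeR adjusted p = 0.0237), and Il4ra rose by 1.53 (SE 0.21).

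Between mice, none of the 42 genes of these lists that were tested in tumor epithelium passed by edgeR, while 8 had an unadjusted p under 0.05 and DESeq2 called 5. In neutrophil-like cells 5 of 38 passed by edgeR (13.2%, beside 11.4% of all genes), a share near the background, and DESeq2 called 9. Ninj1 was at 178 ± 33.1, 215 ± 47.3 and 386 ± 93.9 CPM in mice A, B and C (edgeR adjusted p = 0.0113), Il1b at 7690 ± 1058, 11018 ± 2089 and 11389 ± 672 CPM (edgeR adjusted p = 0.0150), and Il1a at 167 ± 11.3, 288 ± 10.8 and 205 ± 56.0 CPM (edgeR adjusted p = 0.0359). Nlrp3 was at 871, 1076 and 749 CPM (edgeR adjusted p = 0.0454). Zdhhc9, the palmitoylating enzyme listed with the gasdermins, was at 21.5 ± 3.69, 14.95 ± 2.56 and 13.04 ± 2.59 CPM (edgeR adjusted p = 0.0192).

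Finally, the genes whose levels most resembled each member were ranked by Pearson's r of log2(CPM + 1) over 168 sums of a class in a library, from 21 classes and 13 libraries and over 15884 genes. The sums share libraries, depth and cell types, so these values are a description. Gsdmc4 and Gsdmc2 were each other's nearest gene, with r = 0.943, and Gsdmc3 followed at 0.889 with Gsdmc2 and 0.871 with Gsdmc4. Sult1b1, a sulfotransferase of the gut epithelium, had 0.938 with Gsdmc4, and Gsta1, a glutathione transferase, had 0.918 with Gsdmc2. Gsdma was nearest to Wif1, a secreted Wnt inhibitor, at 0.894 and to the potassium channel gene Kcnb2 at 0.881. Gsdmd was nearest to Rab11a, a regulator of membrane recycling, at 0.890. Gsdme had no gene as close, the nearest being Naa35 at 0.613. Between members, Gsdmc4 and Gsdmd reached 0.579, Gsdmd and Gsdme 0.224, and Gsdmc4 and Gsdma -0.012.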

How the data were processed

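Cells of 10 colon tumors and 3 adjacent mucosa samples were profiled with the 10x Genomics 3′ v3.1 chemistry. The authors deposited UMI counts per gene and cell for each library, made with Cell Ranger 6.0.0 on mm10 per the submitters' processing notes, and the deposited counts were not normalized. Depth was 57221300 to 116133079 UMIs per library. Counting intervals and low counts cover counting error only. Groups were taken from the labels. The members and gene lists were chosen with earlier results of these data known.

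Barcodes under 500 UMIs, under 200 genes or over 25% mitochondrial UMIs were dropped, which left 118892 of 137591, and 10397 likely doublets (0.8% per 1000 barcodes) were removed by simulated-doublet scores. Cells were scaled to 10000 UMIs and clustered on 2000 variable genes by 30 principal components, 20 neighbors and Leiden resolution 1 (Python 3.11.15, scikit-learn 1.9.0, igraph 0.11.9, leidenalg 0.10.2, seed 11), with no integration across libraries. The 63 genes left out by name were the members, their relatives Gsdma2, Gsdma3 and Pjvk, the list genes, and the markers Epcam, Cd3d, Cd14 and Cd68. A cluster was named when at least 3 markers of a fixed list marked it and otherwise kept as other or unnamed.

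Raw counts were summed per library and class and fitted with edgeR 4.0.16 (TMM, filterByExpr, quasi-likelihood tests, Benjamini-Hochberg over all genes, threshold 0.05, R 4.3.3) and, as an alternative, DESeq2 1.42.0. For tumor against mucosa every library holding 20 or more such cells entered. Each entered as a separate sample, although the 10 tumors came from 3 mice, so SEs and p-values do not measure the spread among animals. Between mice, a factor of 3 animals was tested over the 10 tumors. Alternatives were another tool, no filter on low counts, a limit of 10% mitochondrial UMIs, Leiden resolution 2, the animal as a block, the tumors of each animal summed, each library left out, and the sums described as added. Named genes were the 7 members, their relatives as context, and up to 4 genes per list with the largest change among those past the threshold. The list rule left the remaining genes to counts, and some genes that it picked are not reported here. In tests on simulated epithelial sums of 15017 genes, 51 of 100 genes changed 2-fold and 100 of 100 changed 4-fold were recovered, with 6 false calls of 14817. The simulated libraries were independent and all genes had a common dispersion. This rate of false calls therefore does not cover tumors that share a mouse. Expected shares of cells at 2000 UMIs were computed without random draws, leaving out shallower cells.

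Tumor and mucosa of the same mouse were paired by the animal code in the labels, not by replicate numbers. Deviations from the group means of same-animal samples correlated across genes at 0.178, 0.104 and 0.216 (mice A, B and C) in epithelial sums, at -0.001, -0.083 and -0.087 in absorptive epithelial-like sums and at 0.238, 0.033 and 0.237 in T cell-like sums. Positions and sequences came from GENCODE vM21 on GRCm38, where 32158 of 32285 genes matched (99.6%). Biopython 1.88 aligned coding sequences, and matplotlib 3.10.9 drew the plots.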

Additional observations from a re-analysis of the deposited data

Results flagged for a closer look

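Among the levels of the members by class, 33 groups of 4 to 10 libraries with at least 100 UMIs were checked for a library far from the others, and 2 had such a library, where chance gives about 1 in 20 groups. Gsdmc2 in goblet-like cells of tumors was at 75.54 CPM in tumor 6, the next library had 24.93 CPM, and the median of the 9 tumors was 5.686 CPM. That value rests on 35 UMIs in 37 cells. Gsdmd in tumor epithelial-like cells was at 28.47 CPM in tumor 3, from 605 UMIs in 1114 cells, whereas the other 9 tumors had 46.42 to 61.65 CPM and the median of all 10 was 54.25 CPM.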

How the results depend on the processing

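In the comparisons of tumor with mucosa, the counts of genes called stayed within 1.5 times under all alternatives but the added one. In the Clca4b, Saa1 and Ly6m cluster alone, 1153 genes passed in place of 3231 for absorptive epithelial-like sums, and the log2 fold changes of Gsdmc2 (-0.44), Gsdmc4 (-0.074), Gsdmc3 (-1.39), Gsdmd (-0.16) and Gsdme (0.17) took the opposite sign, those of Gsdmc4, Gsdmd and Gsdme by less than their SE. Without the enteroendocrine-like and Paneth-like clusters, a setting also chosen after seeing the data, Gsdma in epithelial sums was at 7.23. That value rests on few mucosal counts, since the cells left out held most mucosal Gsdma UMIs. Leaving out a library gave 8695 to 10240 genes in epithelial sums, 2219 to 3400 in absorptive epithelial-like sums and 3427 to 4504 in T cell-like sums. Gsdma ranged from 4.10 to 4.49 and Gsdme from -1.36 to -0.86, the last without mucosa 1. Gsdme in T cell-like sums was at 0.28 without mucosa 1 and -0.38 without mucosa 3. With the animal as replicate block, 10450, 3385 and 4782 genes passed in the 3 comparisons. The pairing changed no call of a member, from which nothing is read, since tissue entered the choice of the members. Between mice in epithelial sums, DESeq2 called 1124 genes in place of 80, a limit of 10% mitochondrial UMIs 12, and leaving out a tumor 0 to 1543. The highest counts came without tumor 9 (1543) or 10 (839) of mouse B, and the count was 0 to 29 without any of tumors 1 to 8. Without tumor 10 Gsdme had an adjusted p of 0.0452. Between mice in neutrophil-like sums, 1621 genes passed with no filter on low counts in place of 1054, Gsdme then had an adjusted p of 0.0449, and leaving out a tumor gave 555 to 1475, the lowest without tumor 2 (555), 6 (614) or 5 (623). At Leiden resolution 2, Gsdmd in inflammatory macrophage-like cells of tumors was at 50.05 CPM and Gsdma in tumor epithelial-like cells at 49.7 CPM. The tumor epithelial-like class then held clusters of 3028 and 2223 tumor cells, in place of 11093 tumor cells. Clusters of 3804 and 3565 tumor cells, with Onecut2 among their leading genes, were named other epithelial and cycling epithelial-like. The causes of these changes were not tested, apart from the fewer samples or cells that each setting uses. Low counts limit Gsdmc3, Gsdme and all values of mucosal leukocytes.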
